A study of Mus musculus with 60 samples.

Results

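The nuclear complex I genes of the mouse striatum were taken as all genes of the deposited gene table whose symbol, found from the Ensembl identifier, starts with Nduf. There were 42 such genes among 9066 in the gene table, and 225 of the 114691 exon rows belonged to them. PolyA RNA had been sequenced from the hand-dissected striatum of 60 heterogeneous stock-collaborative cross (HS-CC) mice, a mixed stock bred from 8 inbred strains, in 1 library per mouse. All of these animals descended from generations of selection for the response to haloperidol, a dopamine receptor blocker, and the labels divide them by the outcome of a catalepsy test, a measure of immobility, and by sex. The responders were 15 females and 15 males, and the non-responders were 13 females and 17 males. Age was not given in the sources used here. Both groups descend from selected animals, and no unselected animals were compared. Whether responders and non-responders came from the same selected line is not stated in the paper, so line and catalepsy group cannot be told apart here.

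Complex I, the NADH dehydrogenase of the inner mitochondrial membrane, takes electrons from NADH, passes them along a chain of iron-sulfur clusters to ubiquinone, and pumps protons across the membrane. It is built from core subunits inherited from bacteria, of which some are encoded by the mitochondrial genome and the rest by nuclear genes, and from accessory subunits that surround the core, and assembly factors join the pieces without staying in the finished enzyme. Neurons of the striatum depend heavily on it, and its inhibitors and mutations are known to harm the basal ganglia.

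Of the 42 genes, 3 encode core subunits of the NADH-oxidising N module (Ndufs1, Ndufv1, Ndufv2), 3 encode core subunits of the ubiquinone-reducing Q module, 9 encode accessory subunits of the matrix arm, 17 encode accessory subunits of the membrane arm and 7 encode assembly factors. Ndufa4 stood by itself, since its product is now assigned to cytochrome c oxidase. The remaining pair, Ndufs6b and Ndufa11b, are single-exon copies of Ndufs6 and Ndufa11, annotated as processed pseudogenes in GENCODE M21. They were kept in all counts and medians of the 42 genes. Reads of the copies and of their parents may have been exchanged in counting. The mitochondrially encoded Nd genes and Ndufs3, Ndufs5, Ndufab1, Ndufb4 and Ndufaf6 were not analysed here. Exons of 16 of the 42 genes overlap another annotated gene in GENCODE M21, such as Braf for Ndufb2, and strand-specific counting was not stated, so such reads cannot be told apart.

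Promoter letters are shown for the genes named by the rules given with the methods that held a match to a motif of nuclear respiratory factor 1 (NRF1) or of YY1, factors known to act on genes of oxidative phosphorylation. Windows of 300 bases, from 250 before to 50 after the start site, were read from the RefSeq promoter table (GRCm38.p6), which held windows for 36 of the 42 genes. The motif GCGCATGC (NRF1), searched like the others on both strands, with overlapping matches counted once per gene, was present in 5 of the 36 genes (13.9%) against 3.05% of 27025 genes in the table. AAGATGGCG (YY1) was present in 6 genes (16.7%) against 1.64% of all genes, and it began from 11 to 36 bases after the start site in each of them. The ETS motif CCGGAAGT and the estrogen-related receptor motif CAAGGTCA were in 0 of 36 genes, against 4.31% and 1.76% of all, GGGCGG (SP1) in 18 (50%) against 38.2%, and TATAAA in 4 (11.1%) against 15.7%. A match describes letters and is not a bound site. Capitals mark the NRF1 or YY1 letters in the gene's own direction, 5′ to 3′. Ndufa6 lies at chr15:82354242-82354541 (minus strand), Ndufa11 at chr17:56717512-56717811 (plus strand), Ndufaf4 at chr4:24897833-24898132 (plus strand), Ndufs4 at chr13:114388045-114388344 (minus strand) and Ndufaf8 at chr11:120098684-120098983 (plus strand).
Ndufa6: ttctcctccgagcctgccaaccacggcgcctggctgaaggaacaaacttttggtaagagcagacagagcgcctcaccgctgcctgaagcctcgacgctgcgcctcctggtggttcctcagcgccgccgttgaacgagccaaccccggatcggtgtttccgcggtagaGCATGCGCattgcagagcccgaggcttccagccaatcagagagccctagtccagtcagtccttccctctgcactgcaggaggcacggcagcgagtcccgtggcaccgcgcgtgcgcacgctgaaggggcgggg
Ndufa11: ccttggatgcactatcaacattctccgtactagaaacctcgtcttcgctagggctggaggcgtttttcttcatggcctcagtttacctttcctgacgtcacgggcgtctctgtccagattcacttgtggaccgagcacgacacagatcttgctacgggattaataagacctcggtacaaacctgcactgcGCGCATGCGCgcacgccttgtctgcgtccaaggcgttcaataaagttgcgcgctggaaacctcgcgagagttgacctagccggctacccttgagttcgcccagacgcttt
Ndufaf4: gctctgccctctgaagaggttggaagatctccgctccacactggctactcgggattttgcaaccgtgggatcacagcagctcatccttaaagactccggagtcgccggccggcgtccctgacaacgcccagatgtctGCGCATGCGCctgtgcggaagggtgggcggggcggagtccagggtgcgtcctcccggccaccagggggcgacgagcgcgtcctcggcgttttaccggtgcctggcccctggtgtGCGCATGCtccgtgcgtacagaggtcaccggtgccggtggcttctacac
Ndufs4: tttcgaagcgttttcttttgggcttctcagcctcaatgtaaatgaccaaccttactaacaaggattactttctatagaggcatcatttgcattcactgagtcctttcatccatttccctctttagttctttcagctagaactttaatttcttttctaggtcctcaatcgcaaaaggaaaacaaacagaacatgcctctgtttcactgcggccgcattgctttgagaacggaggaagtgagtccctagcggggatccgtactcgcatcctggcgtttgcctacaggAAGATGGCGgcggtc
Ndufaf8: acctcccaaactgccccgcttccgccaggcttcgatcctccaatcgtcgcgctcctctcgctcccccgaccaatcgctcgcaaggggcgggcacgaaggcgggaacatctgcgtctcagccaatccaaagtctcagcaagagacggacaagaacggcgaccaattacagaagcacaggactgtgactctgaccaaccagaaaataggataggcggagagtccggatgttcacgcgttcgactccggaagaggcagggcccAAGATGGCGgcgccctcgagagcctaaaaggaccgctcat
The NRF1 letters began 83 bases before the start site in Ndufa6, at 60 and 58 bases before it in Ndufa11, and at 113, at 111 and again 2 bases after it in Ndufaf4. In Ndufs4 and Ndufaf8 the YY1 letters began 36 and 11 bases after it.

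All 42 genes were read in every mouse. The libraries held 4913122 to 21872744 reads on the tabled genes (median 14520042), with 17 libraries from 4913122 to 9507322 (8 responders and 9 non-responders) and 43 from 12051239 upwards. Of the striatal markers tabled, Penk, Ppp1r1b, Pde10a and Adora2a were all high, and none of the 8 in the table was at 0. Mean normalised gene counts, the deposited read counts scaled to a common upper quartile, ran from 42.5 for Ndufa11b to 2824 for Ndufb9. Since each gene was counted over its whole length, levels of different genes were compared as normalised count per kilobase of transcript. The ratios of the single-exon copies to their parent genes are the exception. On that scale Ndufa4 was highest, at 4687 ± 1310 (SD, n = 60), followed by Ndufb9, a membrane arm subunit, at 4011 ± 1032. Next came Ndufa6, a matrix arm subunit, at 2345 ± 608. The step from Ndufb9 to Ndufa6 exceeded the SD of either gene, while the step from Ndufa4 to Ndufb9 did not. Of the 41 neighbouring pairs in this order, 4 differed by more than the larger of their SDs.

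**Figure D1:**
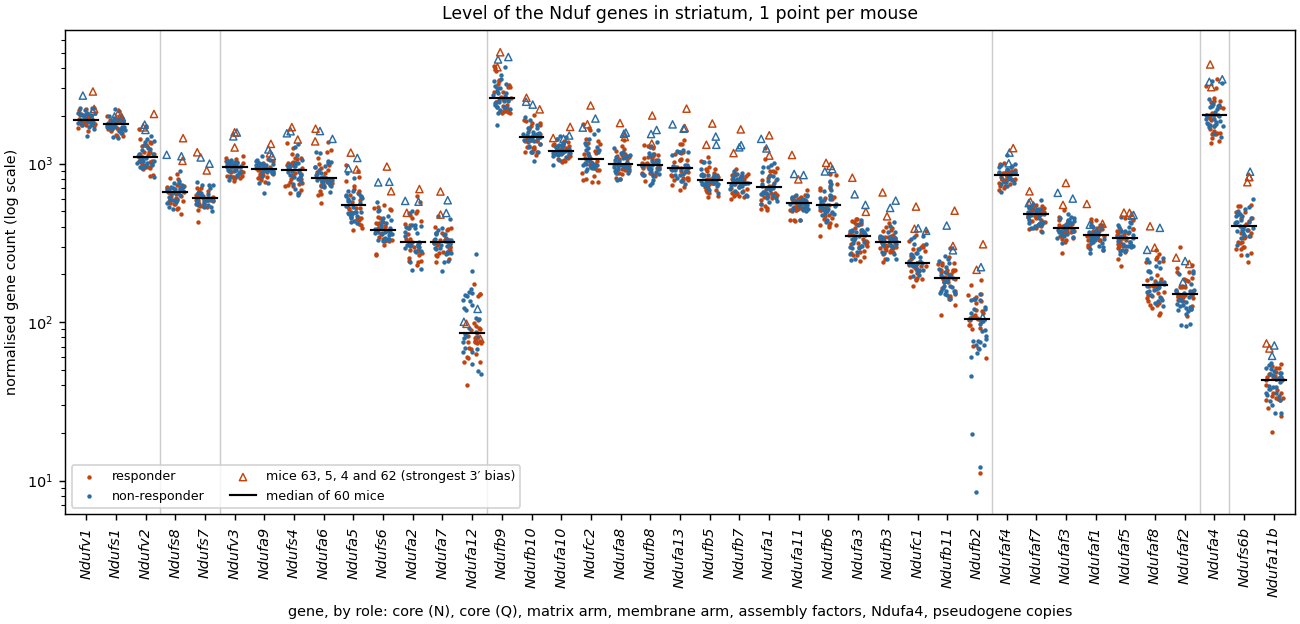
Normalised gene count (log scale) of 41 of the 42 Nduf genes, grouped by role from left to right, with 1 point per mouse coloured by catalepsy group, triangles for mice 63, 5, 4 and 62, and a line at the median of 60 mice. Ndufb9 and Ndufa4 lie highest, the triangles lie at the top of most genes, and 4 mice lie far below the rest for Ndufb2.

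By role, assembly factors had the lowest median per kilobase. The 7 assembly factors lay between 214 (Ndufaf7, a methyltransferase) and 314 (Ndufaf8), with a median of 258. Core subunits of the N module had a median of 893, from 674 for Ndufs1, which carries several of the iron-sulfur clusters, to 1273 for Ndufv1, which binds NADH. Those of the Q module had a median of 731, with 704 for Ndufs8, which carries iron-sulfur clusters, as the lowest. For the matrix arm the median was 699 and for the membrane arm 1036, and both held 1 gene below every assembly factor. In the matrix arm this was Ndufa12, at 118 ± 50.7, and in the membrane arm Ndufb2, at 44.3 ± 20.8. The value for Ndufb2 rests on an annotated transcript length of 2413 bases, long among these genes. Both genes were divided by their whole transcript length, though most of their exon counts lay in 1 exon row. That row held a median of 94.7% in Ndufb2 and 81.5% in Ndufa12. Whether exons with few or no reads lower these levels was not tested.

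The coefficient of variation had a median of 24.1% over the 42 genes, against 16.3% over the 8535 genes averaging at least 10. It was lowest for Ndufs1 (9.42%), was also low for Ndufa10 (11.2%) and Ndufv1 (11.7%), and was highest for Ndufb2 (46.9%) and Ndufa12 (43%). Counting error alone would give 2.02% to 16.4%, and it was under 0.5 of the observed value for 41 genes, the exception being Ndufa11b, whose counting error was 16.4% and whose observed value was 25.1%.

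In the comparison of 30 catalepsy responders with 30 non-responders, which the labels set up, none of the 42 genes passed the test. Limma on log2(value + 1) with sex as a covariate called 0 of 42 at an adjusted p of 0.05, while 9 of 8535 genes (0.105%) were called in all, with 0.0469% higher and 0.0586% lower in responders. The edgeR quasi-likelihood test and DESeq2 on recovered reads also called 0 of 42, against 0.082% and 0.269% of all genes. At an unadjusted p of 0.05, limma had 3 of the 42 genes and edgeR and DESeq2 had 4 each, where the background was 6.49%, 6.51% and 6.78% of all genes. The median log2 difference, responders minus non-responders, was -0.02 over the 42 genes and 0.00 over all genes tested. By limma 11 of the 42 differences were above 0 and 31 below it, by edgeR 19 and 23, and by DESeq2 18 and 24. Over all genes tested, 47.9% of the differences were above 0 by limma, 50.2% by edgeR and 49.3% by DESeq2. The signs of the 42 genes are not independent, since most of these genes were correlated across mice. By role the median log2 differences were -0.02 in the N module, -0.04 in the Q module, -0.01 in the matrix arm, -0.01 in the membrane arm and -0.01 among assembly factors.

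**Figure D2:**
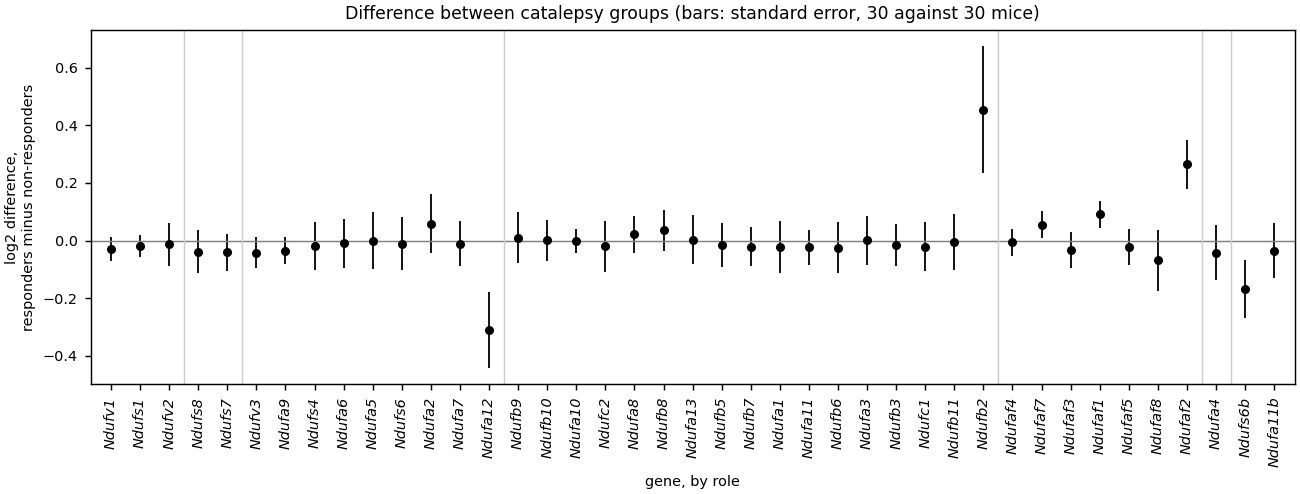
Difference between responders and non-responders on the log2(value + 1) scale for 41 of the 42 Nduf genes, grouped by role, with bars of 1 standard error. Most points lie close to 0, and the farthest are Ndufb2 at 0.45, Ndufa12 at -0.31 and Ndufaf2 at 0.26, none of which passed the adjusted test.

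The smallest p among the 42 genes belonged to Ndufaf2, an assembly factor that binds a late intermediate of the enzyme. Its normalised count was 109 to 296 in responders (median 161) and 94.6 to 243 in non-responders (median 137). The ranges overlapped over most of their length. Its difference was 0.26 on the log2 scale (SE 0.08), with an unadjusted p of 0.00246 and an adjusted limma p of 0.276. Within the 43 deeper libraries the difference was 0.29 and within the 17 shallow libraries 0.18. An exon row of this gene was at 0 in all mice, and its exons overlap B230220B15Rik on the opposite strand.

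Ndufa12, the paralogue of Ndufaf2 that takes its place in the finished enzyme, had the next smallest p and the opposite sign. Its normalised count was 40.3 to 173 in responders (median 78.9) and 47.1 to 269 in non-responders (median 102). Here too the groups overlapped. The difference was -0.31 (SE 0.13), with an adjusted limma p of 0.581, and it was -0.52 among females and -0.13 among males. Ndufb2, a small membrane arm subunit, had 11.2 to 310 in responders (median 110) and 8.45 to 222 in non-responders (median 88.4). Its difference was 0.45 (SE 0.22), with an adjusted limma p of 0.749, and its sign was not the same in the deeper libraries (0.71) and the shallow ones (-0.20). Mice 2, 30 and 37, non-responders with deeper libraries, and mouse 48, a responder with a shallow library, lay far below the rest for Ndufb2. The part of these mice in the differences was not tested.

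Between sexes, 0 of the 42 genes were called by limma, edgeR or DESeq2, where each tool called 0.0351% of all genes. At an unadjusted p of 0.05 there was 1 gene of the 42 by each tool, Ndufa12, against 2.04% of all genes by limma, 2.0% by edgeR and 2.13% by DESeq2. Its normalised count was 40.3 to 152 in males (median 82.6) and 60.2 to 269 in females (median 89.4), with a difference of -0.29 (SE 0.13, males minus females). The next smallest unadjusted p values were 0.132 for Ndufaf1 and 0.171 for Ndufaf4, both assembly factors. For the interaction of catalepsy and sex, 0 of the 42 genes were called by any of the tools, with a background of 0.000%, and 0 had an unadjusted p under 0.05, where the background was 0.562% by limma, 0.516% by edgeR and 0.562% by DESeq2. The smallest unadjusted p values of the interaction were 0.139 for Ndufa12, 0.248 for Ndufa3 and 0.343 for Ndufv3.

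Across mice, most pairs of the 42 genes were positively correlated. Over all 861 pairs, the Pearson correlation of log2(value + 1) across the 60 mice had a median of 0.635 and ranged from -0.10 to 0.96, with 849 pairs above 0 and 262 above 0.8. All 36418845 pairs of tested genes had a median of 0.00167, and 95% of them lay below 0.636. By two-sided permutation with 100000 resamples, 749 of the 861 pairs (87.0%) had an adjusted p under 0.05, all of them with r of at least 0.264. Of all pairs of tested genes, 28.8% had an r at least that high, and 57.1% when either sign is counted. Within the 17 shallow libraries the median over the 861 pairs was 0.309, and within the deeper ones 0.706. In bulk tissue, fewer cells of a type and less RNA per cell cannot be told apart.

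The closest pair was Ndufa4 with Ndufb9, at r = 0.963 and Spearman's rho = 0.959. It was followed by Ndufa5 with Ndufb9 (r = 0.956, rho = 0.946) and by Ndufa4 with Ndufs4 (r = 0.947, rho = 0.938). All of these had the smallest p that the permutations can give (1e-05, adjusted 1.65e-05). Without the 2 mice farthest from the median of the first gene, r was 0.957, 0.945 and 0.936. Within the 17 shallow libraries r was 0.921, 0.911 and 0.889, and within the deeper libraries it was 0.967, 0.959 and 0.951. Ndufa4, no longer counted as a complex I subunit, was thus in 2 of the 3 closest pairs.

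The lowest pairs all included Ndufs1. It stood at r = -0.10 with Ndufaf8 (rho = -0.18, permutation p = 0.444, adjusted 0.459), at r = -0.10 with Ndufa12 (rho = -0.12, permutation p = 0.446, adjusted 0.460) and at r = -0.09 with Ndufa7 (rho = -0.25, permutation p = 0.505, adjusted 0.520). Without the 2 mice farthest from the median of the partner gene (Ndufaf8, Ndufa12 or Ndufa7), these were -0.31, -0.03 and -0.34. None of these pairs passed the test over all mice. Ndufs1 followed the other genes least, with a median r of 0.116.

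**Figure D3:**
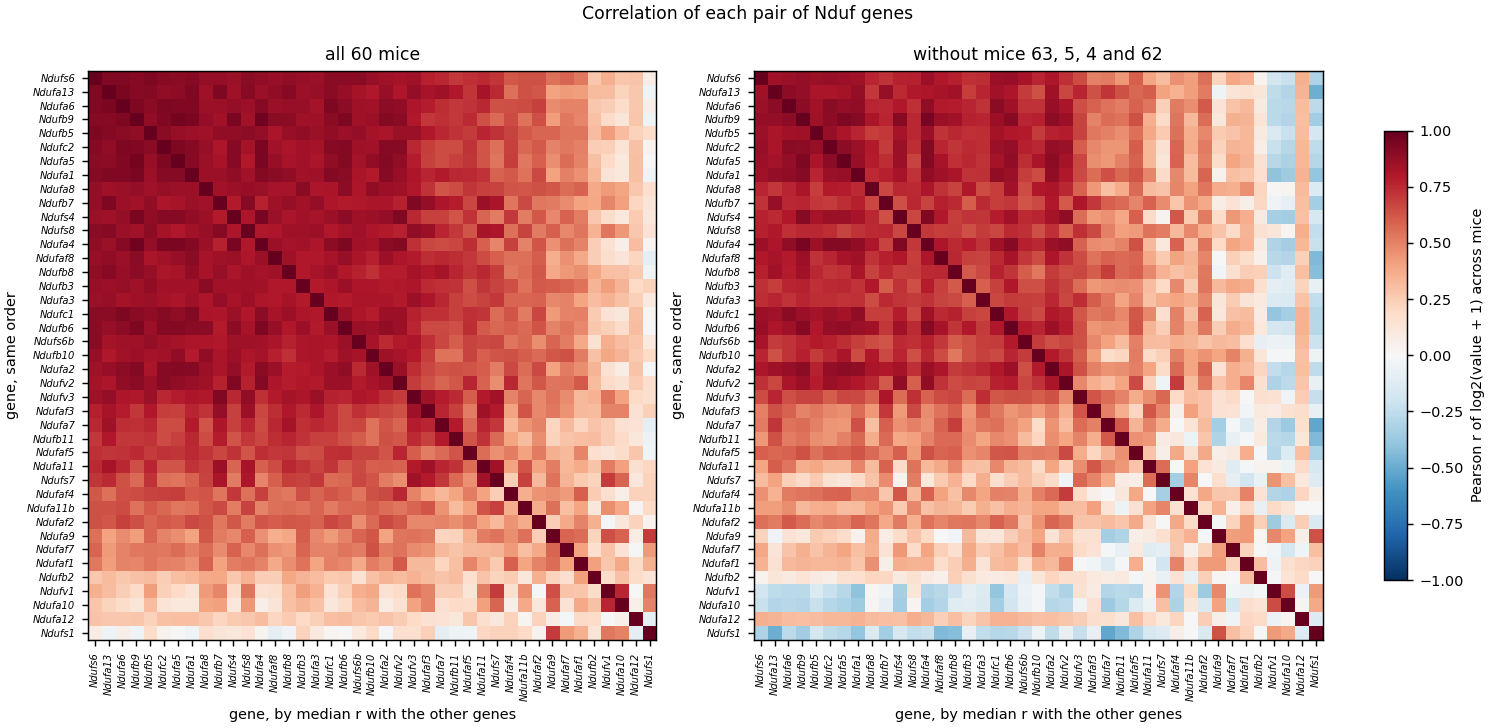
Pearson correlation of log2(value + 1) across mice for each pair of 41 of the 42 Nduf genes, ordered on both axes by their median correlation with the others, over all 60 mice on the left and without mice 63, 5, 4 and 62 on the right. The block of high correlation at the upper left remains on the right at lower values, where the median correlations of Ndufs1, Ndufv1 and Ndufa10 with the others are -0.22, -0.15 and -0.14.

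Single genes took different places in this pattern. With a median r over 0.75 to the others, 24 genes formed a block that this choice itself makes close (r between them 0.697 to 0.963, median 0.858, and median 0.689 in the shallow libraries), led by Ndufs6 (0.849), a zinc-binding matrix arm subunit, Ndufa13 (0.848) and Ndufa6 (0.840). The lowest medians were those of Ndufs1 (0.116), Ndufa12 (0.234), Ndufa10 (0.274), Ndufv1 (0.282) and Ndufb2 (0.289). Of the roles, the membrane arm had a median of 0.80, the matrix arm 0.787, the Q module 0.594, the assembly factors 0.552 and the N module 0.282. Within the N module, Ndufv2, which carries an iron-sulfur cluster beside the NADH site, reached 0.770. The 29 genes with up to 5 exon rows had a median of 0.799 (range 0.234 to 0.849) and the 8 genes with 8 or more a median of 0.480 (range 0.116 to 0.770). The ranges overlapped, and the difference was not tested.

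A measure of the libraries moved with these levels. The 3′ bias of each library was taken as the median, over 5209 genes with at least 5 usable exon rows, of the slope in log2 exon count from the first to the last exon row, each row being set against its average over the 60 animals. Mouse 63 had the strongest bias, at 1.48, followed by mouse 5 (0.907), mouse 4 (0.683) and mouse 62 (0.477). The next mouse had 0.187, and the median was -0.02. The same 4 mice had the highest mean level of the 42 genes. As a mean deviation from each gene's own average, mouse 63 (responder, female) reached 0.87 on the log2 scale, mouse 62 (non-responder, male) 0.63, mouse 5 (non-responder, female) 0.60 and mouse 4 (responder, male) 0.52, followed by mouse 28 with 0.36. The lowest mice were 48 (-0.33), 15 (-0.32) and 45 (-0.31). From the lowest to the highest mouse the mean level thus differed 2.30-fold.

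**Figure D4:**
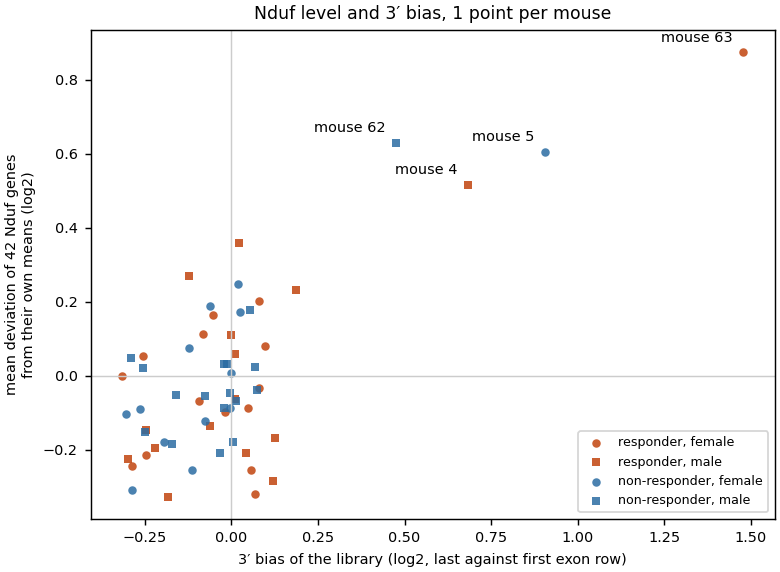
Mean deviation of the 42 Nduf genes from their own averages (log2) against the 3′ bias of the library (log2), 1 point per mouse, coloured by catalepsy group with circles for females and squares for males. Mice 63, 5, 4 and 62 lie at the upper right, 2 of them responders, and the other 56 mice form a cloud between -0.33 and 0.36.

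For 21 of the 42 genes (50%), each of these 4 mice lay above all of the other 56. This held for 7.56% of all tested genes. Ndufb5 had normalised counts of 1792, 1483, 1317 and 1316 in mice 63, 5, 4 and 62 and at most 1107 in the other 56. Ndufs6 had 959, 762, 670 and 769 there and at most 569 elsewhere. In contrast, Ndufs1 had 2109, 1957, 1958 and 1987 in these mice, all within its range in the others, which reached 2216. Mouse 63 was the highest of 60 for 37 of the 42 genes. The share of all tested genes for which this held was not computed, so the count has no background here.

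Each of the 42 genes correlated positively with the 3′ bias, with r from 0.07 (Ndufa12) to 0.80 (Ndufb5) and a median of 0.635, while the median over all tested genes was 0.00354. The permutation test (two-sided, 100000 resamples), with adjustment over all 8535 tested genes, called 41 of the 42 genes by r, where it called 76.7% of all genes. By Spearman's rho, whose median was 0.332, it called 30 of the 42, against 60.3% of all genes. Genes called by r with a positive sign made up 39.6% of all genes. Without the 2 mice farthest from the median bias the median r was 0.443, and all 42 genes stayed positive. Without all 4 mice it was 0.223, so the relation over all mice rests in large part on them. The median r was 0.611 within the deeper libraries and 0.0726 within the shallow ones, where 25 of the genes were positive. None of the 4 mice lies among the shallow libraries, whose bias spanned only -0.32 to -0.01, so their low r cannot be set against the others. All biases below -0.16 were in shallow libraries. The mean level of the 42 genes had a median of -0.15 in shallow libraries and -0.03 in deeper ones. The parts of bias and depth class were not separated over all mice. For the most closely related gene, Ndufb5, r was 0.80 over all mice (rho = 0.476, permutation p = 1e-05, the smallest they can give, adjusted over all genes 2.72e-05) and 0.637 without the 2 farthest mice. Library depth, within either depth class, had a median r of -0.19 (deeper) and -0.24 (shallow) with the 42 genes.

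With the 4 mice left out, the median correlation over the 861 pairs fell to 0.428, and 102 pairs remained above 0.8. The median over all pairs of tested genes was then -0.00042. Within the block of 24 genes the median was 0.761. The median r of Ndufs1 with the others was then -0.22, that of Ndufv1 -0.15 and that of Ndufa10 -0.14. As a whole, 24 of the 42 genes lay in the top 10% of coexpression connectivity of all 9066 genes, computed as the summed absolute correlation of the deposited values to the power of 6, and 11 did so without the 4 mice. Their median percentile was 94.3 with all mice and 69.4 without those 4.

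The catalepsy groups did not differ in this mean level by more than the spread of the mice. It ran from -0.33 to 0.87 in responders (median -0.06) and from -0.31 to 0.63 in non-responders (median -0.05), and from -0.33 to 0.63 in males and from -0.32 to 0.87 in females. No p is given for this mean, which summarises genes already tested above.

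Genes outside the Nduf family that followed the 42 most closely included small proteins of the other respiratory complexes. The 10 highest, by the Pearson correlation over 60 mice with the mean of the standardised levels, were Cox14 (0.960), Uqcr10 (0.959), Srp14 (0.959), Uqcrq (0.954), Fis1 (0.951), Pfdn1 (0.950), Gabarap (0.949), Cox4i1 (0.946), Atp5mpl (0.943) and Serp2 (0.943). Uqcr10 and Uqcrq are small subunits of complex III, Cox14 is an assembly factor and Cox4i1 a subunit of complex IV, and Atp5mpl belongs to ATP synthase. Fis1 sits in the outer mitochondrial membrane. Srp14, Pfdn1, Gabarap and Serp2 act in protein targeting, folding, autophagy and the endoplasmic reticulum. Without the 4 mice of strongest 3′ bias these correlations were 0.881 to 0.935. All points come from the same libraries and share their depth and bias.

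Compared with the other respiratory complexes, the relation with the mean of the 42 genes was of similar size. Its median over genes was 0.848 for the 4 genes of complex II, 0.859 for the 8 of complex III, 0.862 for the 7 of complex IV and 0.864 for the 12 of ATP synthase. Over all genes tested outside the 42 the median was -0.110, and 95% of them lay below 0.805. Without the 4 mice of strongest 3′ bias the medians of the complexes fell to 0.689, 0.722, 0.811 and 0.718. Over all mice, the lowest values in complex II, complex III and ATP synthase were 0.035 for Sdha, the flavoprotein of succinate dehydrogenase, 0.408 for Uqcrc1, a large core protein, and 0.269 for Atp5a1, the alpha subunit. Without the 4 mice these genes stood at 0.02, -0.02 and -0.14. Among these 31 genes, limma called 1 between catalepsy groups, Cox7a2, a small complex IV subunit, which was lower in responders by 0.52 on the log2 scale (adjusted limma p = 0.0145, DESeq2 0.0138). With edgeR its adjusted p was 0.0545, so the call was lost there, and limma called 0.105% of all genes. Its correlation with the mean of the 42 genes was 0.638.

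Assembly factors without an Nduf name were in the table for 8 of 15 symbols, and 0 of the 8 were called between catalepsy groups. Their correlation with the mean of the 42 genes ran from 0.056 for Aifm1, a flavoprotein linked to the import of small subunits, to 0.846 for Tmem126a, which takes part in building the membrane arm. Regulators of mitochondrial genes were in the table for 10 of 14 symbols, with 0 called. Tfam, the packaging and transcription factor of mitochondrial DNA, stood at 0.719 and Nrf1 at 0.105. The coactivators Ppargc1b (-0.843), Pprc1 (-0.772) and Ppargc1a (-0.539) had negative values, which without the 4 mice were -0.613, -0.661 and -0.254. Negative values were not particular to them. Sp1 stood at -0.666, Gabpb2 at -0.448, Esrrg at -0.405, Gabpb1 at -0.100 and Gabpa at -0.035. The median over the 10 regulators was -0.426, and -0.206 without the 4 mice.

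Markers of cell types were read beside the mean level of the 42 genes. The summed microglial markers (4 of 6 symbols in the table) correlated with it at 0.674, and the summed oligodendrocyte markers (6 of 7) at 0.619, and at 0.599 and 0.565 without the 4 mice. The microglial sum was 2862 to 6124 in responders (median 4279) and 3021 to 6738 in non-responders (median 4121), and the oligodendrocyte sum was 97692 to 269550 and 92015 to 248698. The striatal sum was 62562 to 117814 in responders and 57967 to 137889 in non-responders, the astrocyte sum 67028 to 165657 and 88518 to 162466, and Flt1 681 to 1625 and 672 to 1448. For the striatal markers (8 of 13, older symbols included) the value was 0.178, for the astrocyte markers (4 of 6) -0.06, and both turned sign without the 4 mice, to -0.21 and 0.48. The astrocyte sum is mostly Slc1a2, which stood at -0.16, while the median over the 4 astrocyte markers was 0.472. Tbr1 of the cortex stood at -0.29 and Flt1 of the endothelium at -0.26. No marker in the table was at 0 in all mice, and no choroid plexus marker of the list was in the table. The part of any of these in the level of the 42 genes was not tested.

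After the mean of all 42 genes was subtracted, Ndufb2 and Ndufa12 kept the largest spread between mice. The SD of the remaining log2 values was 0.835 for Ndufb2 and 0.525 for Ndufa12, followed by 0.272 for Ndufa11b, 0.258 for Ndufs1 and 0.258 for Ndufaf2. In Ndufb2 (ENSMUSG00000002416, chromosome 6) mice 2, 48, 30 and 37 were lowest, with normalised counts of 8.45, 11.2, 12.3 and 19.8. Their part in the SD of Ndufb2 was not tested. The other 56 mice began at 45.9 and reached 310. All 4 low mice were males, 3 of them non-responders, and the gap between 19.8 and 45.9 held no mouse.

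At the exon level, Ndufb2 was read almost wholly from 1 of its 4 exon rows. The row starting at position 39548265 of chromosome 6 (mm9) held a median of 94.7% of the exon counts, and the first and last rows were at 0 in all 60 mice. In the 4 low mice that row had 4, 4, 8 and 15 normalised counts, while the third row had 4 in each of them, against a mean of 5.65 over all mice. Ndufa12 (ENSMUSG00000020022, chromosome 10) was similarly uneven, with a median of 81.5% of its counts in the last of 5 exon rows and another row at 0 in all mice. Among the 42 genes, 18 of 225 exon rows (8.0%) were at 0 in every mouse, against 14.1% of all exon rows. They lay in 13 genes, with 5 of them in Ndufaf5, an assembly factor that hydroxylates Ndufs7. Whether these rows can be read uniquely was not tested.

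Exon usage was compared as the log2 share of each exon row in the summed exon counts of its gene. Of the 170 rows tested, in 40 genes with at least 2 exon rows, 0 were called between catalepsy groups by limma, where 0.0209% of 67134 rows were called, and 11 had an unadjusted p under 0.05 (background 4.83%). Between sexes 0 rows were called, with a background of 0.000%, and 2 had an unadjusted p under 0.05 (background 2.66%). These were a row of Ndufs1 starting at 63210241 of chromosome 1 (mm9), with a mean share of 13.1% in males and 12.2% in females, and a row of Ndufa11 starting at 56860458 of chromosome 17, with 13.1% and 13.9%. Both had an adjusted limma p of 1.00. The next smallest p was that of another Ndufa11 row, starting at 56857185, with 43.9% in males and 41.8% in females. The SD of the log2 share between mice had a median of 0.170 over the 170 rows and of 0.328 over all rows. The widest were the first row of Ndufb11, the last row of Ndufa1, the first rows of Ndufa12 and Ndufa5 and the fourth row of Ndufv2.

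The smallest p of any of these rows belonged to the last exon row of Ndufa1 (ENSMUSG00000016427), an X-linked membrane arm subunit. This row starts at position 34727583 of chromosome X (mm9) and held a mean of 13.9% of the gene's exon counts. Its share was 12.6% to 17.7% in 15 female responders (median 16.4%), 12.4% to 19.7% in 15 male responders (median 14.9%), 5.57% to 18.5% in 13 female non-responders (median 13.4%) and 1.07% to 18.5% in 17 male non-responders (median 14.8%). The 12 lowest mice, up to 12.2%, were all non-responders, since the lowest responder had 12.4%. The difference was 0.61 on the log2 scale (SE 0.21, responders minus non-responders), with an unadjusted p of 0.00470 and an adjusted limma p of 0.637, so it did not pass the test over all exon rows.

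Among the 32 males the shares fell into separate ranges. Mice 22, 50, 38 and 30 had 1.07%, 1.31%, 1.33% and 1.77%, and the other 28 males began at 11.9%. The 95% Wilson intervals of the low males, which cover counting error only, reached at most 2.73%. Their normalised counts on the remaining exon rows were 669 to 941, within the 416 to 1203 of the other males but all above their median of 575.5. The gene level of the low males was 678 to 958. In females the shares had no such gap, and mice 25, 41, 29 and 17 were lowest, with 5.57%, 7.80%, 9.16% and 10.4%. Mouse 30 was also among the 4 low mice of Ndufb2, and the 3′ bias of the 4 low males was -0.25 to 0.05.

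**Figure D5:**
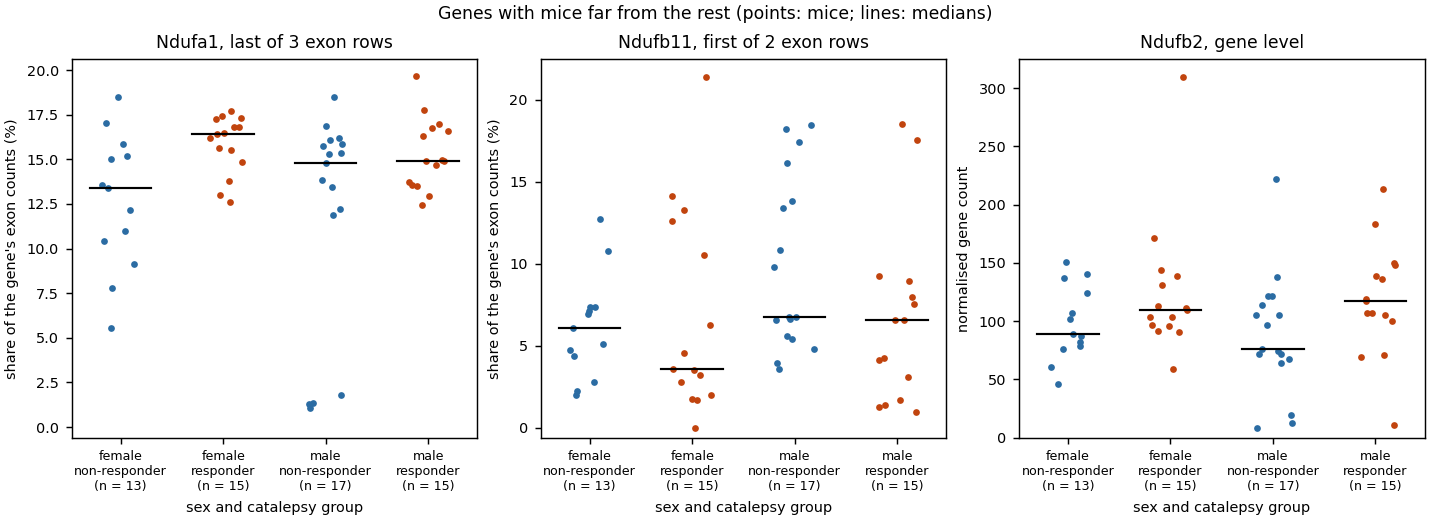
Share (%) of the last exon row of Ndufa1 and of the first exon row of Ndufb11 in the exon counts of their genes, and normalised gene count of Ndufb2, by sex and catalepsy group, with 1 point per mouse and lines at the medians. For Ndufa1, 4 male non-responders lie below 2% with the other males above 11%, and for Ndufb2, 4 males lie below 20.

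Ndufb11, the other X-linked gene of the 42, encodes a membrane arm subunit and had only 2 exon rows. The share of the first ran from 0.00% to 21.4%. It was 0.00% to 21.4% in female responders (median 3.57%), 2.02% to 12.7% in female non-responders (median 6.08%), 0.99% to 18.5% in male responders (median 6.57%) and 3.57% to 18.4% in male non-responders (median 6.77%). The groups overlapped. The responder minus non-responder difference was -0.52 (SE 0.26) with an adjusted limma p of 1.00, and the row had a mean normalised count of 16.5. The share of 0 in mouse 31 came from 0 of 198 reads, for which the Wilson interval reaches 1.90%.

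The rows with the next smallest p for catalepsy were the sixth row of Ndufv2 and the first row of Ndufa1. In Ndufv2 the share was 15.3% in responders and 16.2% in non-responders on average (adjusted limma p = 0.831). In Ndufa1 the first row moved against the last, with 59% in responders and 61.3% in non-responders (adjusted limma p = 0.918). Shares of the rows of a gene add up to the whole, so these rows do not move independently.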

How the data were processed

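Striatal polyA libraries of 60 HS-CC mice, 1 per animal, were analysed. Per the labels and the paper's methods, the authors aligned reads with Bowtie 0.12.7 to NCBI m37 (mm9), summarised them by union exon on Ensembl 59 models and scaled them with edgeR 3.4.2. The deposited gene values are a signal that the authors made from read counts times 1 upper quartile factor per library, from which whole reads were recovered (100% of values within 0.001 reads). The deposited exon values are a score, the authors' normalised exon counts rounded to whole numbers. Columns left unused numbered 0. Recovered depth was 4913122 to 21872744 reads per mouse.

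Symbols came from GENCODE M21 (97.7% of identifiers found), as did transcript lengths, the median over protein-coding basic transcripts. The genes and gene lists were chosen with earlier results of these data known. Genes averaging at least 10 were tested in limma 3.58.1 (trend) on log2(value + 1), with sex and catalepsy group as terms, in R 4.3.3, and adjusted by Benjamini-Hochberg over 8535 genes. A fold change on that scale understates the change of low genes. Alternatives were edgeR 4.0.16 and DESeq2 1.42.0 on recovered reads, TMM scaling, pseudocount 10, other filters, covariates for 3′ bias or depth, and sets of mice. Exon shares were tested as log2 of exon value + 1 over gene sum + 1. Tested on simulated data, in which 200 genes differed between responders and non-responders by a log2 change of 0.5, limma recovered 94.5% with 8 false calls among 8535 genes and edgeR 95.0% with 9. For 200 exon rows of 67134 with a log2 change of 1, limma recovered 99.5%. Correlations were computed in Python 3.11.15 with numpy 2.4.6, scipy 1.17.1 and pandas 2.3.3, and figures in matplotlib 3.10.9.

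Named genes were, in each role, those of highest and lowest level per kilobase, the 3 of smallest p per comparison, the 5 of largest SD after subtracting the mean of all 42, the 3 highest and 3 lowest pairs, the 10 most alike other genes, and the exon rows with the 3 smallest p per comparison or the 5 largest SDs of the share. Other genes were named after their values were seen. Wilson intervals are at the 95% level and cover counting error only. The values of 1 of the 42 genes, which is kept in all counts and medians, and of 1 marker gene are not reported here.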

Additional observations from a re-analysis of the deposited data

How the results depend on the processing

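None of the 42 genes were called under any alternative run, between catalepsy groups, between sexes or for the interaction, and none of their exon rows between catalepsy groups or sexes, where the interaction was not run. The smallest adjusted p of a gene between catalepsy groups ran from 0.128 to 1.00 over these settings. Leaving out each of the 60 mice in turn gave counts from 0 to 0 for both main comparisons. The median log2 difference between catalepsy groups, -0.02, ran from -0.05 to 0.00 under TMM scaling, pseudocount 10, 3′ bias as a covariate and subsets of mice, each within its jackknife SD of 0.07. The median pairwise correlation of 0.635 (jackknife SE 0.0695) was 0.512 by Spearman's rho, 0.439 after regressing out 3′ bias, 0.706 in the 43 deeper libraries, 0.309 in the 17 shallow ones, and 0.428 without the 4 mice of strongest 3′ bias, a setting chosen after seeing the data. The cause was not tested. It was 0.585 to 0.649 when any 1 mouse was left out, lowest without mouse 63. No paired analysis was possible because each mouse has its own number and belongs to 1 group. Genes of few reads, such as Ndufa11b with 10 reads in 1 library, were limited by depth, and an exon share near 0 by the reads of its gene.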

Other observations

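The single-exon copies were read at very different levels beside their parent genes. The value of Ndufs6b was 0.737 to 1.37 times that of Ndufs6 in the same mouse, with a median of 1.02, and the pair had r = 0.900 and rho = 0.839 across the 60 mice (permutation p = 1e-05, the smallest they can give, adjusted 1.65e-05), with r = 0.878 without the 2 mice farthest from the median of Ndufs6. Ndufa11b stood at 0.0458 to 0.108 times Ndufa11, with a median of 0.0740, with r = 0.632 and rho = 0.446 (permutation p = 1e-05, adjusted 1.65e-05) and r = 0.528 without the 2 farthest mice. Within the 17 shallow libraries its r was -0.34. The ratios above are of normalised counts not divided by transcript length. Per kilobase the mean was 1236 for Ndufs6b and 740 for Ndufs6, and 100 for Ndufa11b and 1059 for Ndufa11. How many reads of each copy came from its parent was not tested.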
